A study of Mus musculus with 12 samples.

Results

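The genes of the proteasome were described here in mouse liver at circadian time 0 h (CT0) and 12 h (CT12), with and without the clock factor BMAL1 in the liver. They were taken as every gene whose symbol begins with Psma, Psmb, Psmc, Psmd, Psme, Psmf or Psmg followed by a digit, which gave 50 of the 22322 gene symbols in the data. Of these, 19 belong to the core particle and 17 to the regulatory particle, and the other 14 are assembly chaperones, further activators and regulators, and 2 genes that share the naming pattern but encode no proteasome subunit. The last are Psmc3ip, a meiotic recombination factor, and the pseudogene Psme2b-ps.

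The proteasome is the protease complex that degrades proteins tagged with chains of ubiquitin. Its core particle is a barrel of outer alpha and inner beta rings, and the beta rings carry the peptidase sites. The regulatory particle docks on the barrel, where its lid removes ubiquitin and the ATPases of its base unfold the substrate and open the gate. In cells exposed to interferon, inducible beta subunits replace the catalytic ones and form the immunoproteasome, which favours peptides for antigen presentation. BMAL1, encoded by Arntl, pairs with CLOCK and drives transcription from E-box motifs.

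Liver RNA of C57BL/6 mice aged 8 weeks was sequenced in 4 groups of 3 samples. WT stands for the wild type and KO for the liver-specific knockout of Bmal1, each taken at CT0 and at CT12, and all mice had been in darkness for 2 days after a week of 12 h of light and 12 h of dark. In the study's methods WT mice carry 2 floxed Bmal1 alleles, and KO mice carry them together with CRE recombinase driven in liver. CRE is not mentioned for WT, and its own effects and those of losing Bmal1 cannot be told apart. Those methods also give 3 KO and 3 WT mice as the source of liver RNA for CT0 and CT12. The titles number 3 samples per group, while the treatment note speaks of 2 mice per genotype and time. As these sources differ, whether every sample was a separate mouse is not known, and p-values measure the spread between these samples.

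Values were reads scaled to transcript length and to sequencing depth (RPKM), and each gene was represented by the transcript row with the highest mean. The depth recovered from the values ranged from 11463000 to 19019000 reads per sample. It differed by group, with 18897000, 19019000 and 16898000 reads in WT at CT0 and at most 16130000 in any other sample. The part of depth in the differences below was not tested. Arntl stood at 16.4, 15.7 and 15.7 RPKM in WT at CT0 and at 1.26, 0.680 and 1.21 in WT at CT12. In KO it stood at 5.92, 5.73 and 7.45 RPKM at CT0 and at 4.37, 3.59 and 4.01 at CT12. These values cover a whole transcript and do not show the deleted exons. The hepatocyte marker Alb lay between 14010 and 37870 RPKM in every sample, while all 10 lymphocyte markers examined had a mean under 1 RPKM.

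The promoters were searched for the palindromic E-box CACGTG because it is the motif bound by the missing factor. In windows from 250 bases before to 50 bases after the start of the longest protein-coding transcript (NCBIM37 build, GENCODE vM1), 6 of 47 members held it, or 12.8%, against 10.1% of the windows of 10742 tested genes. The stretches of 60 bases with the E-box in capitals are shown for these 6 genes, each on its own coding strand and read 5′ to 3′.
Psmb10, 116 bases before the start, chr8:108462376-108462435, minus strand: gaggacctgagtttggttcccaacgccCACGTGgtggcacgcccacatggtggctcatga
Psme3, 44 bases before the start, chr11:101177456-101177515, plus strand: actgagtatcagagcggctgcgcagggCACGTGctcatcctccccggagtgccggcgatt
Psmd9, 51 bases before the start, chr5:123678121-123678180, plus strand: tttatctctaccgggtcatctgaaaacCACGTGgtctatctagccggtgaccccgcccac
Psma4, 71 bases before the start, chr9:54798499-54798558, plus strand: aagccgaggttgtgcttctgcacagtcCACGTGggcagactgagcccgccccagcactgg
Psmb2, 214 bases before the start, chr4:126354633-126354692, plus strand: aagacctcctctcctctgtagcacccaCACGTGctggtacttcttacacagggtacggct
Psmb3, 231 bases before the start, chr11:97564463-97564522, plus strand: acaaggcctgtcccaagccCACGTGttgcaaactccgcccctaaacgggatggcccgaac

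Between CT0 and CT12 in WT, the difference on the log2(RPKM + 1) scale was 0.47 for Psmb10, 0.36 for Psme3, 0.17 for Psmd9, -0.07 for Psma4, -0.10 for Psmb2 and -0.22 for Psmb3. The first 2 of these passed the test and the others did not. For Psme3 and Psma4 the window belongs to the longest row and the difference to another row. With the longest row, Psme3 did not pass. At CT12, KO minus WT was -0.64, -0.10, 0.11, -0.07, 0.04 and 0.06 in the same order of genes, and only Psmb10 passed. Among all tested genes, 4.90% of those with the motif were higher at CT12 in WT and 9.07% were lower, against 3.57% and 7.74% of those without it. Between genotypes at CT12, 7.68% of those with the motif were higher in KO and 4.07% lower, against 6.91% and 3.42% of those without it. A match is a description of these letters and says nothing of binding.

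The transcription factors NRF1 and NRF2, known activators of proteasome genes, bind antioxidant response elements. Their core, searched as TGACNNNGC on both strands, lay in 7 of 47 member windows, or 14.9%, against 14.1% of all windows. It is shown for the catalytic subunits Psmb5 and Psmb6, with the motif in capitals.
Psmb5, 47 bases before the start, chr14:55236846-55236905, minus strand: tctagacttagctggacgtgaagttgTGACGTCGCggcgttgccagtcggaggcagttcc
Psmb6, 38 bases before the start, chr11:70338824-70338883, plus strand: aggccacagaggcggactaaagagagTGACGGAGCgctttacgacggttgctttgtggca

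None of the 7 members with this element passed the test at CT12, either between genotypes or against CT0 in WT. Of all tested genes with the element, 6.79% were higher and 3.36% lower in KO at CT12. With time in WT, 4.15% of them were higher at CT12 and 7.11% lower. A set of 7 is too small to be set apart from these shares. The CCAAT box, searched on both strands, lay in 16 of 47 member windows, or 34.0%, against 38.1% of all windows. Nfe2l1 and Nfe2l2, which encode NRF1 and NRF2, passed in no comparison. Nfe2l2 averaged 17.5 ± 0.547 RPKM in WT at CT0, 14.5 ± 0.843 in WT at CT12, 21.9 ± 2.68 in KO at CT0 and 16.4 ± 2.54 in KO at CT12 (SD, n = 3 each).

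RNA of the constitutive proteasome genes stood at a high level in all 12 livers. By liver, the summed RPKM of the tested genes ran from 1026 to 1200 for the core particle. For the regulatory particle it ran from 680.3 to 873.4. The alpha ring genes had a median of 74.4 RPKM over the 12 samples, from 40.4 for Psma5 to 114.1 for Psma3. The structural beta genes Psmb1 to Psmb4 had a median of 81.9 RPKM. Among the catalytic subunits, Psmb5 (chymotrypsin-like activity) stood at 42.4, Psmb6 (caspase-like activity) at 87.2 and Psmb7 (trypsin-like activity) at 98.1 RPKM. The base genes had a median of 56.7 RPKM, from Psmc2 at 30.4 to Psmd2 at 67.2, and the lid genes one of 40.9 RPKM, from Psmd7 at 19.4 to Psmd8 at 59.9.

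Members outside the constitutive particle were lower or more mixed. The immunoproteasome genes had a median of 18.7 RPKM and the assembly chaperones one of 8.16 RPKM. Among the activators, the interferon-inducible pair Psme1 and Psme2 stood at 99.6 and 97.6 RPKM, above Psme3 (32.4) and Psme4 (35.8), which activate nuclear proteasomes, while the inhibitor Psmf1 stood at 12.97 RPKM. The testis alpha subunit Psma8 averaged 0.543 RPKM and the thymus beta subunit Psmb11 averaged 0.00637 RPKM. Together with Psmc3ip these 2 fell under the minimum for testing, a mean of 1 RPKM in at least 1 group, so 47 of the 50 members were tested.

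These levels depend in part on the transcript row chosen. For 33 members the kept row was also the longest one, and for 17 it was another. Psma3 was read from a row of 312 bases at 114.1 RPKM, and its longest row stood at 40.0 RPKM. With the longest row, the medians were 64.3 RPKM for the alpha ring, 46.5 for the base, 27.8 for the lid and 12.9 for the immunoproteasome genes, and 81.9 and 87.2 again for the structural and the catalytic beta genes. The order of the lid below the base and the base below the core held with either row.

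**Figure D1:**
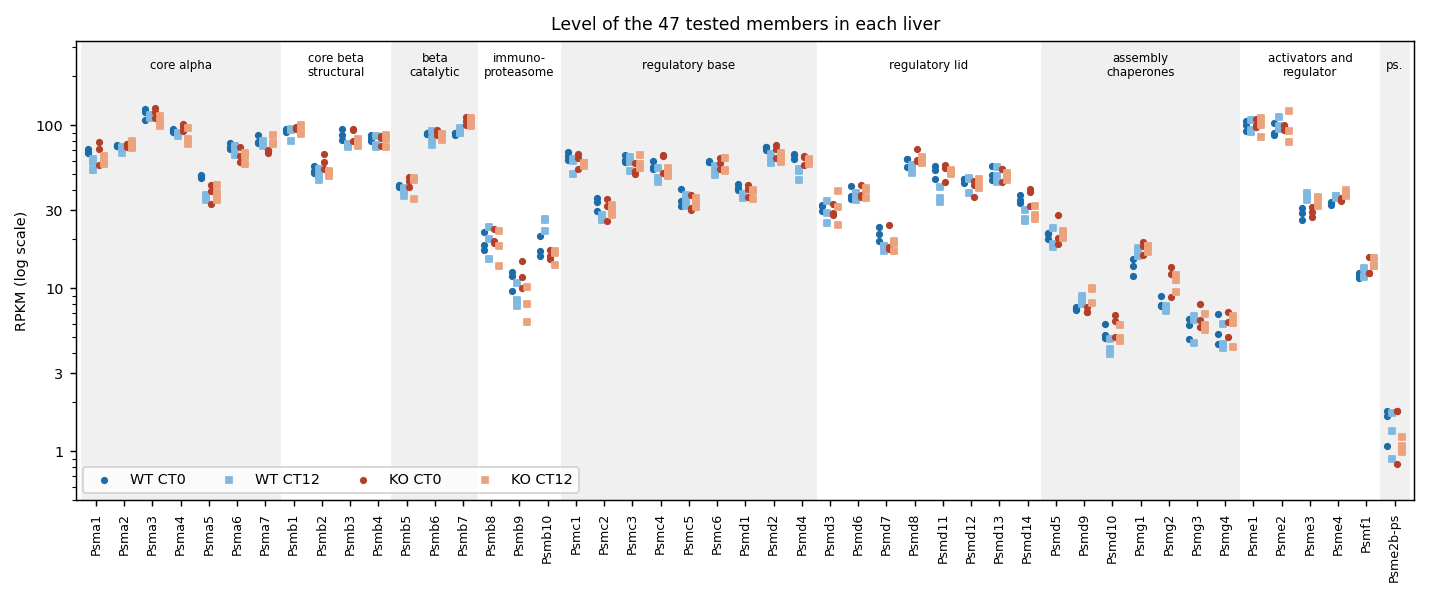
RPKM of the 47 tested members in each of the 12 livers, on a log axis, grouped by role and coloured by genotype and time (one point per liver, with the pseudogene at the right). The constitutive core genes lie between 32.9 and 127.2 RPKM, the chaperones lie lower, and the points of the 4 groups overlap for most genes.

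The samples of a group differed little in these genes. The median SD within groups on the log2 scale was 0.10 for the core particle and 0.13 for the regulatory particle, against 0.16 for all 10799 tested genes. These sets were not matched for level. Psme4 was the steadiest member with a within-group SD of 0.036, and Psmb8 and Psmb9 were among the least steady, since the median for the 3 immunoproteasome genes was 0.25. Differences were tested with limma on all 12 samples, and a gene was called at a Benjamini-Hochberg adjusted p under 0.05 over the 10799 genes.

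The first question was whether the KO livers differ from WT in these genes. At CT0 limma called 0 of 47 members, with 1.86% of all tested genes called. An unadjusted p under 0.05 was found for 5 members, or 10.6%, against 14.2% of all genes. These were Psmg1, Psmb7 and Psmg2, whose values were higher in KO, and Psma5 and Psma7, whose values were lower. Psma5 had 48.5 ± 1.02 RPKM in WT and 38.6 ± 5.19 in KO (SD, n = 3 each), a log2 difference of -0.33 (SE 0.10, limma adjusted p = 0.15). Psma7, also of the alpha ring, stood at 79.3, 78.1 and 87.3 RPKM in WT and at 69.0, 70.8 and 68.0 in KO, which do not overlap. Its log2 difference was -0.23 (SE 0.08, limma adjusted p = 0.19). The median log2 difference was 0.02 for the core particle and -0.06 for the regulatory particle, against 0.01 for all genes.

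At CT12 limma called 3 of 47 members between the genotypes, or 6.38%, against 10.5% of all tested genes. The higher ones in KO were Psmd11 of the lid and the chaperone Psmg2, beside 6.97% of all genes higher, and the lower one was Psmb10 of the immunoproteasome, beside 3.49% of all genes lower. The median log2 difference was 0.05 for the core and 0.07 for the regulatory particle, against 0.08 for all genes. The particle medians turned to -0.05 and -0.01 when GC and length trends were removed, a setting that also moved the median of all genes to -0.0003. RPKM are shares of a library, and Alb, the most abundant hepatocyte marker examined, was lower in KO by a log2 difference of -1.05 at CT12 (SE 0.13, limma adjusted p = 0.0003). At CT0 Alb was lower in KO too, by a log2 difference of -0.93 (SE 0.13, limma adjusted p = 0.0045). The 8 hepatocyte markers had a median difference between genotypes of 0.06 at CT12 and of -0.23 at CT0. Fgb was higher in KO at CT12 by 0.88 (limma adjusted p = 0.01). The part of Alb in the particle medians was not tested.

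The differences of the members were small beside those of other genes, but the sets were not matched for level. The median by sample lay between 37.2 and 48.4 RPKM for the members and between 6.18 and 6.90 RPKM for all tested genes. At CT12 the median size of the log2 difference between genotypes was 0.08 for the 47 members and 0.16 for all genes, and the median SE was 0.10 and 0.13. The 95% interval lay within 0.5 on either side of 0 for 40 of 47 members and for 55.0% of all genes. At CT0 this held for 41 of 47 members and for 63.0% of all genes.

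The second question was whether these genes differ between the times of day. In WT, limma called 5 of 47 members between CT0 and CT12, or 10.6%, against 11.6% of all tested genes. Higher at CT12 were Psmb10 and the activator Psme3, beside 3.71% of all genes higher. Lower at CT12 were Psma5 of the alpha ring, Psmd4 of the base and Psmd11 of the lid, beside 7.88% of all genes lower. In KO, limma called 0 of 47 members with time, with 2.43% of all genes called. There 7 members had an unadjusted p under 0.05, or 14.9%, against 19.9% of all genes.

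In the regulatory particle, 2 of 17 genes passed the test with time in WT, or 11.8%, a share near that of all genes. All 17 had a negative log2 difference, with a median of -0.18, while 6606 of the 10799 tested genes were negative with a median of -0.07. Of the 17, 5 had an unadjusted p under 0.05, or 29.4%, against 26.9% of all genes, and the values ran from -0.49 for Psmd11 to -0.03 for Psmc5. The core particle had a median of -0.07 with 14 of 17 negative. In KO, 12 of the 17 regulatory particle genes were negative with a median of -0.06, and 15 of the 17 core genes with a median of -0.07, while 5432 of the 10799 tested genes were negative with a median of 0.00. The KO median of the regulatory particle ran from -0.12 without KO replicate 2 at CT0 to 0.00 without KO replicate 1 at CT0, and was -0.02 without KO replicate 1 at CT12. The WT median stayed between -0.21 and -0.11 under all 23 alternative settings, the smallest being that with GC and length trends removed. Members measured in the same livers are not replicates, and whether the particle as a whole differed was not tested.

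By sample, the median deviation of the regulatory particle genes from their own means over the 12 livers was 0.15, 0.07 and 0.05 in WT at CT0 and -0.06, -0.19 and -0.08 in WT at CT12. The groups do not overlap, and the lowest liver was WT replicate 2 at CT12. In KO it was 0.14, -0.10 and 0.06 at CT0 and -0.09, 0.02 and 0.02 at CT12, which overlap. The deviations of all tested genes in the same livers were 0.00, 0.02 and 0.02 in WT at CT0 and -0.02, -0.05 and -0.09 in WT at CT12. These do not overlap either. In bulk tissue, fewer cells of a type and less RNA per cell cannot be told apart.

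Beside these values, the median log2 difference with time in WT was -0.23 over 8 hepatocyte markers, -0.63 over 10 of Kupffer cells and macrophages, -2.07 over 4 of neutrophils, -0.52 over 5 of sinusoidal endothelium, -0.54 over 5 of stellate cells and fibroblasts and -0.32 over the 3 of cholangiocytes that were tested. Of these, limma called Fgb, Emr1, C1qb, S100a8, S100a9, Camp, Dcn and Krt7 lower and none higher. With time in KO the medians were 0.15, -0.38, -2.18, -0.53, -0.73 and -0.52 in the same order of lists. There limma called S100a8, S100a9, Ngp and Camp lower and none higher. The sums over endothelial markers ran from 78.8 to 97.4 RPKM in WT at CT0 and from 52.7 to 62.8 in WT at CT12, and those over stellate markers from 127.2 to 176.6 and from 93.5 to 109.7. Their part in the values of the regulatory particle was not tested.

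**Figure D2:**
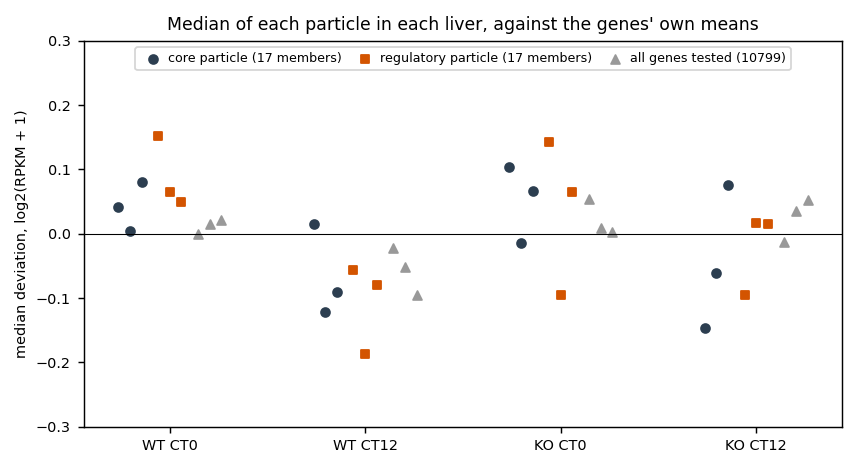
Median deviation of the 17 core genes (circles), the 17 regulatory particle genes (squares) and all 10799 tested genes (triangles) from each gene's own mean over the 12 livers, in log2(RPKM + 1), one point per liver. In WT the squares lie above 0 in all 3 livers at CT0 and below 0 in all 3 at CT12. The triangles of the WT times do not overlap either. In KO the times overlap for squares and triangles, and whether the genotypes differ in this was not tested.

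Psmd11 encodes a scaffold subunit of the lid and had the largest difference with time in WT among the members. It stood at 53.1, 56.6 and 46.95 RPKM in WT at CT0 and at 36.0, 33.6 and 41.6 in WT at CT12. The KO livers had 57.4, 44.95 and 54.8 RPKM at CT0 and at 52.5, 53.1 and 50.01 at CT12. The WT livers at CT12 lay below all the others. The log2 difference with time in WT was -0.49 (SE 0.11, limma adjusted p = 0.018), and KO exceeded WT at CT12 by 0.48 (SE 0.11, limma adjusted p = 0.018). These contrasts share the WT samples at CT12, and the interaction of genotype and time was 0.48 with an adjusted p of 0.21.

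The kept row of Psmd11 spans chr11:80243389-80269929 on the plus strand, with 600 bases of exon. Its 6 rows gave log2 differences from -0.49 to -0.32 with time in WT and from 0.48 to 0.55 between genotypes at CT12. The call with time was lost when WT replicate 1 or 2 of either time was left out, with limma adjusted p from 0.052 to 0.073, and with the replicate block and GC and length trends removed together, at 0.056. The call between genotypes at CT12 was lost without WT replicate 1 or 2 or without KO replicate 2 at CT12, with limma adjusted p from 0.055 to 0.068, and with GC and length trends removed, at 0.054. It was also lost with the replicate block and those trends removed together, where the limma adjusted p was 0.083.

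Psmd4, a ubiquitin receptor of the base, had a like order of groups. It stood at 62.0, 65.8 and 67.0 RPKM in WT at CT0 and at 52.7, 46.1 and 53.8 in WT at CT12. Values in KO were 64.4, 57.2 and 63.9 RPKM at CT0 and at 58.2, 62.4 and 61.2 at CT12. Again the WT livers at CT12 lay below the rest. The log2 difference with time in WT was -0.35 (SE 0.08, limma adjusted p = 0.021), while at CT12 the difference between genotypes was 0.25 (SE 0.08) and missed the threshold with an adjusted p of 0.083. The call was lost without WT replicate 2 or 3 at CT0 or without WT replicate 2 at CT12, with limma adjusted p from 0.071 to 0.074, and with GC and length trends removed, at 0.075. It was also lost with the replicate block and those trends removed together, where the limma adjusted p was 0.084. The kept row spans chr3:94836626-94839189 on the minus strand, and all 4 rows of the gene gave a log2 difference of -0.35.

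Psma5, an alpha ring subunit, was higher in WT at CT0 than elsewhere. It stood at 48.1, 47.8 and 49.7 RPKM in WT at CT0 and at 35.6, 37.2 and 35.0 in WT at CT12. In KO it stood at 39.6, 32.9 and 43.2 RPKM at CT0 and at 34.8, 38.2 and 42.8 at CT12. The WT livers at CT0 lay above all the others, and the difference with time in WT was -0.42 on the log2 scale (SE 0.10, limma adjusted p = 0.023). The interaction was 0.43 with a limma adjusted p of 0.24. The call was lost when any WT sample at CT0, or WT replicate 1 or 3 at CT12, was left out, with limma adjusted p from 0.055 to 0.077. Its single row lies at chr3:108059844-108082892 on the plus strand.

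The structural beta genes Psmb1 to Psmb4 were called in no comparison. The lowest unadjusted p among them, 0.029, was that of Psmb2 with time in KO. Psmb2 stood at 51.1, 52.0 and 56.2 RPKM in WT at CT0, at 53.7, 46.0 and 48.9 in WT at CT12, at 66.3, 53.8 and 59.8 in KO at CT0 and at 52.7, 50.9 and 48.9 in KO at CT12. The KO livers at CT0 lay above those at CT12, with a log2 difference of -0.23 (SE 0.09, limma adjusted p = 0.2).

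Psmd14, the lid enzyme that cuts ubiquitin chains off the substrate, missed the threshold but had like values in both genotypes. It stood at 37.2, 33.5 and 34.9 RPKM in WT at CT0 and at 25.8, 26.7 and 30 in WT at CT12. The KO livers had 40.7, 32.0 and 39.2 RPKM at CT0 and at 26.6, 28.1 and 32.2 at CT12. The log2 difference with time was -0.35 (SE 0.11) in each genotype, with limma adjusted p of 0.06 in WT and 0.11 in KO. It was called in WT when only the samples compared or the longest row were used, and without KO replicate 2 at CT0. The other lid genes Psmd3, Psmd6, Psmd7, Psmd8, Psmd12 and Psmd13 and all 6 ATPases Psmc1 to Psmc6 were called in no comparison.

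The immunoproteasome genes parted from each other. Psmb10, the inducible counterpart of Psmb7, stood at 17, 20.8 and 15.8 RPKM in WT at CT0 and at 26.1, 26.4 and 22.5 in WT at CT12. Values in KO were 15.2, 17.3 and 15.9 RPKM at CT0 and at 16.4, 13.9 and 16.9 at CT12. The WT livers at CT12 lay above all 9 others. The log2 difference with time in WT was 0.47 (SE 0.12, limma adjusted p = 0.024), and KO was lower than WT at CT12 by a log2 difference of -0.64 (SE 0.12, limma adjusted p = 0.0041). In KO the difference with time was -0.03. The interaction was -0.50 (SE 0.16) with a limma adjusted p of 0.21, so a change of the time difference with genotype was not called.

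The difference of Psmb10 between genotypes at CT12 passed under all 23 alternative settings, with limma adjusted p from 0.0015 to 0.02. The difference with time in WT was lost without WT replicate 1 or 3 at CT0 or WT replicate 1 or 2 at CT12, with limma adjusted p from 0.07 to 0.091. The gene lies at chr8:108459628-108462292 on the minus strand and its window holds the E-box shown above.

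Psmb8 and Psmb9, the inducible counterparts of Psmb5 and Psmb6, were called in no comparison. Psmb8 stood at 22.2, 18.3 and 17.1 RPKM in WT at CT0 and at 19.9, 23.8 and 15.1 in WT at CT12, a log2 difference of 0.02 (SE 0.19). Its KO values were 19.4, 23.0 and 19.1 RPKM at CT0 and 13.6, 18.3 and 22.5 at CT12. All 4 groups of Psmb8 overlap. Psmb9 stood at 11.9, 9.59 and 12.6 RPKM in WT at CT0 and at 8.45, 10.7 and 7.75 in WT at CT12, a log2 difference of -0.31 (SE 0.18). Its KO values were 11.8, 14.8 and 10.1 RPKM at CT0 and 6.25, 8.02 and 10.1 at CT12. At CT12 KO minus WT was -0.11 for Psmb8 and -0.14 for Psmb9, and the largest value of the pair was -0.54 for Psmb9 with time in KO (SE 0.18, limma adjusted p = 0.13).

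Psme1 and Psme2, which interferon also induces and which form an activator ring on the core, were called in no comparison either. Psme1 stood at 92.6, 105.6 and 100.8 RPKM in WT at CT0, at 91.1, 108.1 and 93.5 in WT at CT12, at 97.7, 109.1 and 100.3 in KO at CT0 and at 100.3, 85.2 and 111.4 in KO at CT12. Psme2 stood at 86.7, 102.9 and 89.8 RPKM in WT at CT0, at 98.7, 112.3 and 94.4 in WT at CT12, at 94.0, 99.9 and 99.3 in KO at CT0 and at 92.5, 78.6 and 122.5 in KO at CT12. The groups overlap for both genes, and each of the 4 differences between groups was 0.13 or less in size on the log2 scale. The pseudogene Psme2b-ps averaged 1.34 RPKM and was not called.

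As a share of its constitutive counterpart on the RPKM scale, Psmb10 made 20.2% ± 3.30 of Psmb7 in WT at CT0 and 27.3% ± 2.21 in WT at CT12 (SD, n = 3 each). The share was 15.2% ± 1.89 in KO at CT0 and 14.9% ± 1.96 in KO at CT12 (SD, n = 3 each). Both genes enter this share. KO minus WT on the log2 scale was 0.26 at CT0 and 0.20 at CT12 for Psmb7, and -0.14 and -0.64 for Psmb10. The ratio of Psmb8 to Psmb5 was 45.6% ± 6.85 in WT at CT0 and 50.3% ± 13.3 in WT at CT12 (SD, n = 3 each), a difference within the spread. With the longest row of each gene these were 30.9% ± 2.72 and 33.0% ± 6.33, so the level of this ratio depends on the row. Summed over the 3 pairs, the inducible subunits were 22.1% ± 1.42 of the constitutive ones in WT at CT0 and 25.1% ± 4.55 in WT at CT12. In KO they were 20.2% ± 3.23 at CT0 and 17.8% ± 2.02 at CT12 (SD, n = 3 each). With the longest rows the means were 17.3%, 20.5%, 15.6% and 13.9% in the same order. With either row the times overlap in each genotype, and the genotypes overlap at CT0 and not at CT12. These ratios were not tested.

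Immune cells carry the immunoproteasome at high levels, so their markers are given beside Psmb10. The summed RPKM of 10 Kupffer cell and macrophage markers was 228.1 to 294.5 in WT at CT0, 138.7 to 206.6 in WT at CT12, 200.3 to 292.2 in KO at CT0 and 148.9 to 254.9 in KO at CT12, with Emr1 and C1qb lower at CT12 in WT. Summed over 4 neutrophil markers it was 29.0 to 104.7, 5.70 to 7.84, 97.3 to 203.0 and 16.6 to 42.3 in the same order. The 10 lymphocyte markers summed to between 1.64 and 4.72 RPKM in every sample. The marker sums of macrophages and neutrophils were lower in WT at CT12 than in WT at CT0. Between genotypes at CT12, S100a8 and S100a9 were higher in KO (1.75 and 1.65, limma adjusted p of 0.024 and 0.019). Averaged over both times, all 4 neutrophil markers were called higher in KO. No marker of Kupffer cells and macrophages was called between genotypes. The part of these markers in the values of Psmb10 was not tested.

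For 13 genes of the interferon response and antigen presentation, the summed RPKM was 1981 to 2172 in WT at CT0, 1876 to 2034 in WT at CT12, 1883 to 2170 in KO at CT0 and 1710 to 2062 in KO at CT12. Of these, H2-K1 was lower in KO at CT12 (log2 difference -0.38, limma adjusted p = 0.027) and Tap2 was lower at CT12 in WT (-0.65, limma adjusted p = 0.033). None of the 13 was called higher in any comparison. The part of these markers in the result was not tested.

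Averaged over both times, limma called 3 of 47 members between the genotypes, against 11.5% of all tested genes. Psmb7 and Psmg2 were higher in KO, beside 7.44% of all genes higher, and Psmb10 was lower, beside 4.03% of all genes lower. Psmb10 and Psmg2 were also called at CT12, and the averaged contrast holds those samples again. The median log2 difference was 0.01 for the core and 0.02 for the regulatory particle, against 0.04 for all genes.

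Psmb7, the constitutive trypsin-like subunit, stood at 89.4, 86.98 and 89.4 RPKM in WT at CT0 and at 95.8, 89.8 and 90.1 in WT at CT12. In KO it stood at 112.7, 100.3 and 106.0 RPKM at CT0 and at 98.6, 108.6 and 110.0 at CT12. All 6 KO livers lay above all 6 WT livers. The averaged log2 difference was 0.23 (SE 0.05, limma adjusted p = 0.016), made of 0.26 at CT0 and 0.20 at CT12, neither of which passed alone (limma adjusted p of 0.12 at both). The averaged call was lost with the replicate block and GC and length trends removed together, where the difference was 0.16 with a limma adjusted p of 0.058. The gene lies at chr2:38443556-38499607 on the minus strand. The other catalytic subunits were not called, with averaged log2 differences of 0.11 for Psmb5 and 0.04 for Psmb6.

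Psmg2 pairs with Psmg1 in a chaperone that builds the alpha ring. It stood at 8.995, 7.80 and 7.94 RPKM in WT at CT0 and at 7.44, 7.27 and 7.82 in WT at CT12. The KO livers had 13.4, 8.82 and 12.3 RPKM at CT0 and at 9.50, 11.2 and 12.1 at CT12. Of the 6 KO livers, 5 lay above all WT livers and KO replicate 2 at CT0 lay among them. The averaged log2 difference was 0.45 (SE 0.10, limma adjusted p = 0.01), and the call held under all 22 alternative settings. The call at CT12 alone (0.48, SE 0.14, limma adjusted p = 0.043) was lost in 14 of 23 settings, 9 of which left out a sample, and the limma adjusted p reached 0.14 without KO replicate 3 at CT12. At CT0 the difference was 0.42 (SE 0.14, limma adjusted p = 0.17), and Psmg2 was called there only when KO replicate 2 of CT0 was left out.

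Psmg1, the partner, stood at 11.9, 13.7 and 15.1 RPKM in WT at CT0 and at 18.1, 15.9 and 19.2 in KO at CT0, which do not overlap. The log2 difference was 0.37 (SE 0.10) and missed the threshold with a limma adjusted p of 0.099. In WT at CT12 it stood at 17.6, 17.1 and 15.8 RPKM, a difference with time of 0.30 (SE 0.10, limma adjusted p = 0.08). All 7 chaperones had a positive averaged difference between genotypes, with a median of 0.14 on the log2 scale, and 61.4% of all tested genes were positive too. Only Psmg2 passed, and the averages of the other 6 ran from 0.04 to 0.22.

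Psme3 encodes the nuclear activator that opens the core without ubiquitin. It stood at 31.1, 28.9 and 26.2 RPKM in WT at CT0 and at 38.0, 34.8 and 38.3 in WT at CT12. Values in KO were 31.7, 27.5 and 29.3 RPKM at CT0 and at 35.1, 32.0 and 36.4 at CT12. In each genotype the CT12 livers lay above the CT0 livers. The log2 difference with time was 0.36 in WT (SE 0.09, limma adjusted p = 0.027) and 0.22 in KO (SE 0.09, limma adjusted p = 0.21), and the interaction was -0.14 with an adjusted p of 0.73. The call was lost without WT replicate 2 or 3 at CT0 or WT replicate 1 or 3 at CT12, with limma adjusted p from 0.075 to 0.1, and with the longest row, at 0.072. The kept row spans chr11:101178291-101181908 on the plus strand.

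Psme4, the other large activator, moved by less but was the most even. It stood at 33.4, 32.6 and 33.8 RPKM in WT at CT0 and at 36.9, 35.9 and 36.8 in WT at CT12. In KO it stood at 35.8, 34.3 and 34.7 RPKM at CT0 and at 36.9, 39.9 and 38.0 at CT12. The times do not overlap in either genotype, yet the log2 difference of 0.13 in each missed the threshold, with limma adjusted p of 0.24 in WT and 0.32 in KO. Psmd9, a chaperone of the base with an E-box in its window, differed with time by 0.17 in WT and 0.30 in KO, with limma adjusted p of 0.28 and 0.11.

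**Figure D3:**
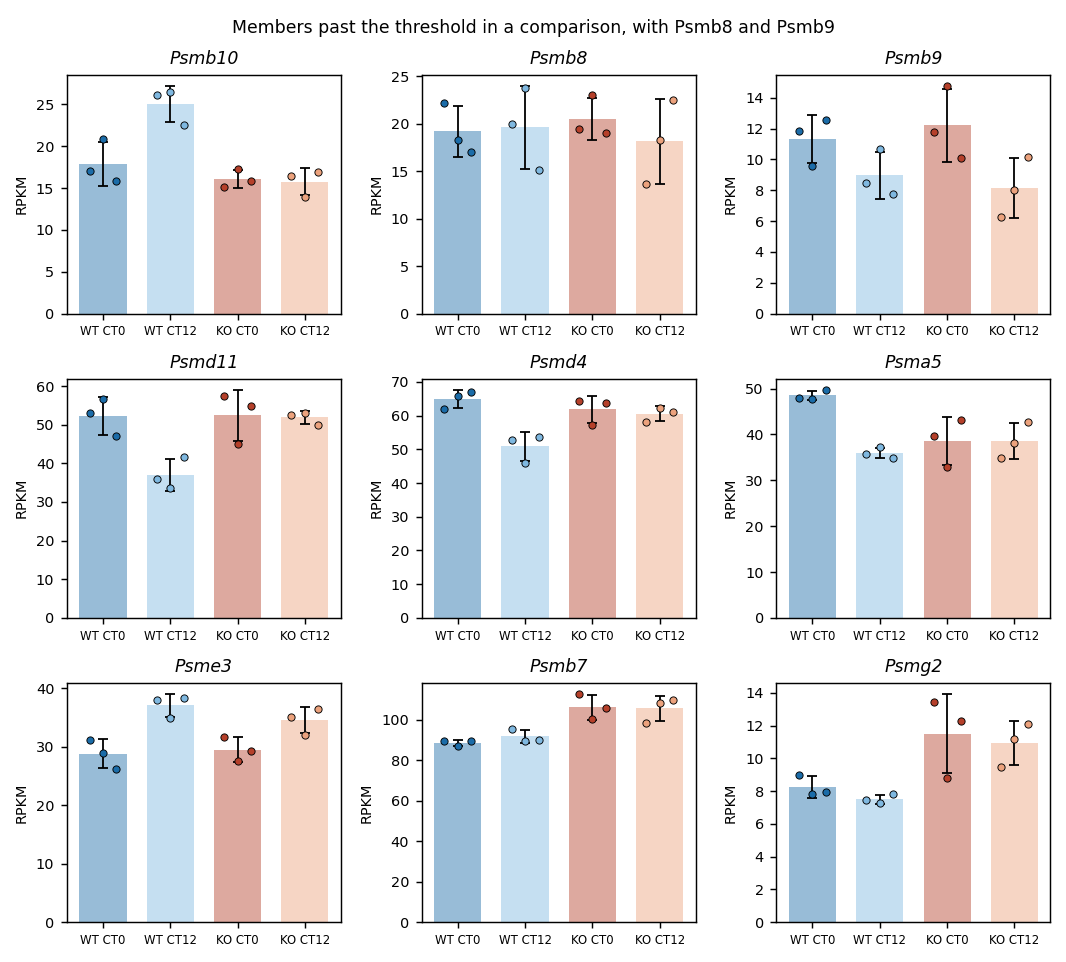
RPKM of the 7 members called in a comparison, with Psmb8 and Psmb9 beside Psmb10; bars are group means, error bars are SD (n = 3), points are single livers and each axis starts at 0. WT at CT12 stands apart for Psmb10, Psmd11 and Psmd4, WT at CT0 for Psma5, the KO livers for Psmb7, and Psme3 is higher at CT12 in both genotypes.

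The interaction of genotype and time was called by limma for 0 of 47 members, with 1.49% of all tested genes called. The unadjusted p was under 0.05 for 5 members, or 10.6%, against 12.3% of all genes. These were Psmb10, Psmd11, Psma5, Psmd4 and Psma7, with log2 values of -0.50, 0.48, 0.43, 0.32 and 0.28. Their limma adjusted p ran from 0.21 to 0.33. A call with time in WT and none in KO is therefore not shown to be a difference between genotypes. For the interaction, the 95% interval lay within 0.5 on either side of 0 for 31 of 47 members and for 32.6% of all genes.

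**Figure D4:**
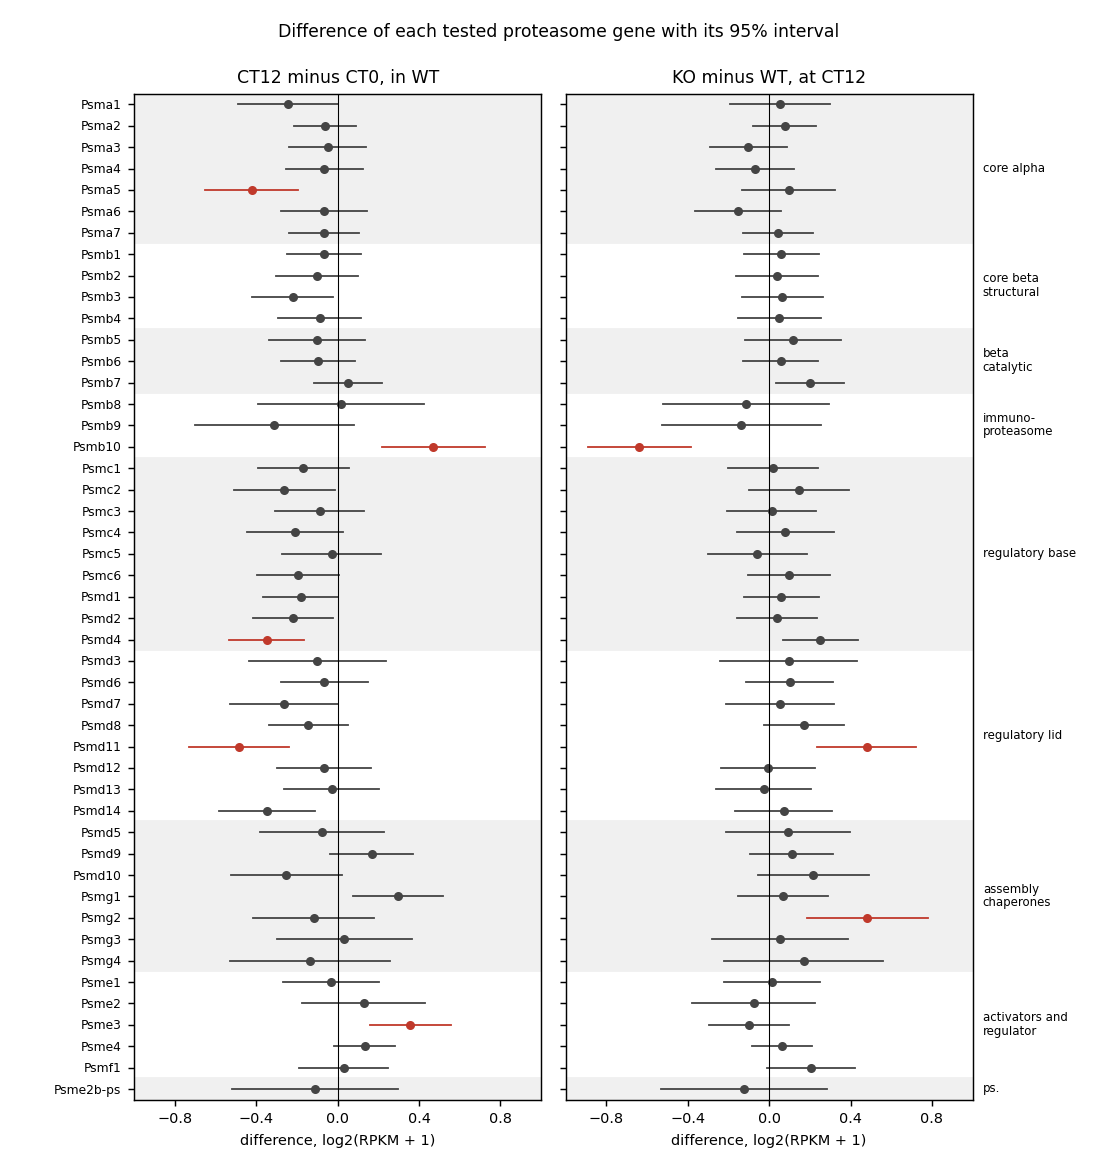
Log2(RPKM + 1) difference of each of the 47 tested members with its 95% interval from limma, for CT12 minus CT0 in WT (left) and KO minus WT at CT12 (right); red marks an adjusted p under 0.05 over all genes. The 17 regulatory particle genes all lie left of 0 in the left panel, and most intervals in both panels cross 0.

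Beside the members, 30 further genes of the ubiquitin and proteasome pathway were examined. At CT12, 2 of the 30 were higher in KO and none was lower, a share near the 6.97% of all tested genes higher, with 3.49% lower. The 2 were the shuttle receptor Ubqln1 (0.36, SE 0.08, limma adjusted p = 0.017) and Rps27a, which encodes ubiquitin fused to a ribosomal protein (0.33, SE 0.08, limma adjusted p = 0.027). The maturation factor Pomp and the ubiquitin receptor Adrm1 were not called, at 107.8 ± 3.001 and 25.8 ± 1.54 RPKM (SD, n = 3) in WT at CT0.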

How the data were processed

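RNA of 12 mouse livers was converted into libraries with a TruSeq RNA kit. Per the labels, the submitters' processing notes name TopHat2, bedtools 2.19.1 and the mm9 build. The annotation release and the counting rules are not given in the sources used here. The deposited values were RPKM for 46585 transcripts per sample, computed by the authors and not pooled. Depth was recovered from the low values, of which 95.6% to 96.3% lay within 0.05 of a whole read, and this step and the test were tried on simulated data.

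Each symbol was represented by its row of highest mean RPKM. Genes whose mean reached 1 RPKM in some group were tested on log2(RPKM + 1), a scale that understates changes of low genes. A model of 4 group means was fitted with limma 3.58.1 in R 4.3.3 (trended prior), with Benjamini-Hochberg adjustment and a threshold of 0.05. Tables were made with pandas 2.3.3 (Python 3.11.15) and plots with matplotlib 3.10.9. Groups came from the sample titles. Full values were given by rule for members called in any comparison, for Psmb8 to Psmb10, Psme1 and Psme2, and for the lowest p of a class without a call. Psmd14, Psmg1, Psme4, Psma7 and Psmd9 were singled out after their values were seen. Members and gene lists were chosen with earlier results of these data known. As alternatives served a pseudocount of 0.1, testing without a filter, 1 RPKM in every sample, quantile normalization, summed rows, the replicate number as a block, only the samples compared, a prior without trend and leaving out each sample. Lowess trends on GC content and length (span 0.3) were also removed, with and without the block, and the longest row was used, both chosen after seeing the data. A result of the list of pathway genes is not reported here.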

Additional observations from a re-analysis of the deposited data

How the results depend on the processing

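The counts of called members were 3 between genotypes at CT12, 5 with time in WT and 3 between genotypes averaged over times. At CT12 the count was 1, Psmb10, with GC and length trends removed, with or without the replicate block. With time in WT it was 3 with the block and those trends removed. Leaving out 1 sample gave 0 to 1 at CT0, 1 to 3 at CT12, 1 to 6 with time in WT, 3 to 5 for the average, and 0 for the time in KO and for the interaction. The value of 1 with time in WT came without WT replicate 2 or 3 at CT0 or WT replicate 1 at CT12. The value of 1 at CT12 came without WT replicate 1 or 2 or KO replicate 2 at CT12, and that of 5 for the average without KO replicate 2 at CT0. The interaction of Psmg2, 0.06 on the log2 scale and not called, was -0.0071 with quantile normalization, -0.1026 without KO replicate 2 at CT0 and -0.0079 without KO replicate 3 at CT12, with a range from -0.1026 to 0.175 over the samples left out, and the cause was not tested. No call of the 7 members changed its sign under an alternative. The replicate numbers did not pair the samples, since deviations from group means correlated by 0.01 on average between equal numbers and 5 of 12 samples correlated best with their own number. With the replicate block alone the counts were 2 at CT12, 5 with time in WT and 3 for the average. With the block and the GC and length trends removed together, the averaged call of Psmb7 was lost (limma adjusted p = 0.058). With 3 samples a group and RPKM rows that may share reads, small changes of single subunits or isoforms are beyond these data.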
